A study of Mus musculus with 12 samples.

Results

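Small nucleolar RNAs and small Cajal body RNAs were read from 81 of the 41345 measured rows of a whole-transcript microarray study of mouse macrophages. A row is 1 probe set, and a row was taken as a member when its only gene symbol began with Snord (box C/D RNAs, 47 rows), Snora (box H/ACA RNAs, 28 rows) or Scarna (small Cajal body RNAs, 6 rows). The 81 rows carry 78 symbols, because Snora19, Snora33 and Scarna17 have more than 1 row each. All 81 matched a mouse RefSeq gene by gene identifier. Another 46 rows list such a symbol beside another symbol and were not counted as members.

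RAW 264.7 is an established adherent line of mouse monocyte/macrophage cells transformed by Abelson murine leukaemia virus, and every sample is this line grown alike in culture. The 3 groups were cells that had received pre-miR-223 (an agent that supplies the microRNA miR-223), cells that had received anti-miR-223 (an inhibitor of miR-223), and cells that had received an irrelevant scramble, each by transfection and for 48 h, called Pre-miR-223, Anti-miR-223 and Scramble below. Each group had 4 arrays that the labels call biological replicates. For each array, total RNA was extracted with the miRNeasy kit and taken into biotin labelling with the GeneChip WT PLUS kit. No untransfected cells were analysed here, a transfection reached all 3 groups, and all groups come from 1 cell line, so the replicates differ by culture and not by animal. The question read from these arrays is whether the small nucleolar and Cajal body RNAs differed between cells given more miR-223 activity, less of it, or neither.

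Box C/D RNAs pair with ribosomal RNA and with spliceosomal RNA and direct the methylation of chosen riboses, bound by fibrillarin, Nop56, Nop58 and Snu13. Box H/ACA RNAs direct the conversion of chosen uridines to pseudouridine, bound by dyskerin (Dkc1), Nhp2, Nop10 and Gar1, and Cajal body RNAs guide the same reactions on spliceosomal RNAs. In mammals most of them are cut from introns of host genes, many of which encode ribosomal proteins, translation factors or spliced RNAs without a long reading frame, while a few, such as Snord118 and Snord13, are made from genes of their own.

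Both arms of mouse miR-223, the microRNA named by the transfected agents, are shown to identify it; the sequences of the agents themselves, and which arm they supply or inhibit, are not given in the sources used here. The seed, bases 2 to 8, is in capitals, both arms lie on the plus strand, and the sequences are RefSeq's on GRCm38.p6, at chrX:96242842-96242864 for the 5p arm and chrX:96242884-96242905 for the 3p arm.
mmu-miR-223-5p: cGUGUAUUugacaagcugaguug
mmu-miR-223-3p: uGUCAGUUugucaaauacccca

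The values are log2 signals after robust multi-array averaging (RMA) by the authors, with all arrays on a common scale, so a difference of 1 is a 2-fold difference in signal. The signal of one row cannot be set against that of another row, because probes differ in brightness. Of the 81 rows, 79 had a mean signal above log2 2.01, the level required for testing (46 box C/D, 27 box H/ACA and 6 Cajal body rows). Snora35 and Snord85 were below it, with means over the 12 arrays of 1.65 and 1.77, and were not tested. Both Snora19 rows held the same value in every array and are 1 measurement listed under 2 identifiers.

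Array medians over all rows lay between 2.21 and 2.31, and macrophage markers (10 rows) had median signals of 8.72 to 9.06, while the lists for fibroblasts, epithelium, lymphoid cells, and neutrophils with dendritic cells had medians of at most 2.50 in every array. Anti-miR-223 replicate 4 stood apart from the rest. Its median correlation with the other arrays was 0.961, against 0.984 to 0.991 for the other 11, and 986 of 15458 tested rows differed by over 2-fold from the mean of the other 11. The comparisons between groups below are therefore given with it and without it. The one row that lists Mir223 lists a second gene as well, so no level of miR-223 is given here.

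The class medians of the box C/D and box H/ACA RNAs were far lower in Anti-miR-223 replicate 4 than in any of the other 11 arrays. In that array all 79 tested members lay below the mean of the other 11. The median difference was -1.52 for box C/D, -1.59 for box H/ACA and -1.57 for Cajal body rows on the log2 scale, a signal 2.88, 3.01 and 2.98 times lower. Members lower by over 1 numbered 63 of 79 (34 of 46, 24 of 27 and 5 of 6 by class), against 2.04% of all tested rows, and 71 of 79 had their lowest value of the 12 arrays there (40, 25 and 6 by class), against 15.1% of all tested rows. This is 1 array, so the difference has no replicate check and no test is given for it.

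**Figure D1:**
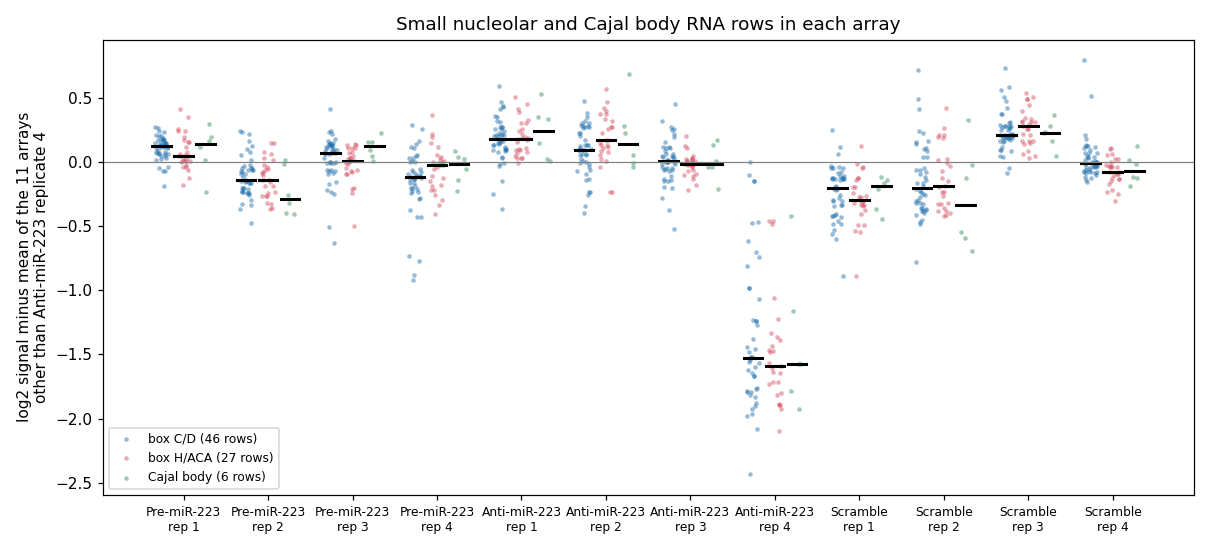
Log2 signal of each tested small nucleolar or Cajal body RNA row minus its mean over the 11 arrays other than Anti-miR-223 replicate 4 (vertical axis), in each of the 12 arrays (horizontal axis, Pre-miR-223, Anti-miR-223 and Scramble from left to right). Points are rows, coloured by class, and black bars are class medians, which are -1.52, -1.59 and -1.57 in Anti-miR-223 replicate 4 and between -0.34 and 0.28 in every other array.

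Among the 11 other arrays the class medians differed by far less than their gap to Anti-miR-223 replicate 4, and the 3 classes moved together. On the same scale the box C/D medians were 0.12, -0.14, 0.07 and -0.12 in Pre-miR-223 replicates 1 to 4, 0.18, 0.09 and 0.00 in Anti-miR-223 replicates 1 to 3, and -0.20, -0.20, 0.21 and -0.01 in Scramble replicates 1 to 4. The Scramble arrays alone therefore spanned 0.41, more than the 0.26 spanned by the Pre-miR-223 arrays and the 0.18 spanned by the other 3 Anti-miR-223 arrays. The median of protein-coding rows spanned 0.08 over the Scramble arrays and 0.12 over the Pre-miR-223 arrays. The box H/ACA medians were 0.04, -0.14, 0.01 and -0.03 in Pre-miR-223, 0.18, 0.17 and -0.02 in the same 3 Anti-miR-223 arrays, and -0.30, -0.19, 0.28 and -0.08 in Scramble. Both classes were highest in Scramble replicate 3 and lowest, Anti-miR-223 replicate 4 apart, in Scramble replicates 1 and 2, so the groups overlapped throughout.

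The members that stand outside any host gene in RefSeq shared the low values. Snord118 (U8, required for processing of the large-subunit ribosomal RNAs) had signals of 7.42, 7.06, 7.14 and 7.13 in Pre-miR-223, 7.37, 7.30, 6.93 and 5.25 in Anti-miR-223, and 7.08, 7.31, 7.40 and 7.18 in Scramble. Anti-miR-223 replicate 4 differed by -1.97 from the mean of the others and the remaining 11 arrays lay within 6.93 to 7.42, with the groups overlapping. Snord13 (U13, a guide for acetylation of the small-subunit ribosomal RNA) had 10.11, 9.90, 9.83 and 9.64 in Pre-miR-223, 10.05, 10.02, 10.13 and 8.28 in Anti-miR-223, and 9.93, 10.56, 10.48 and 10.06 in Scramble. Its lowest value again came from Anti-miR-223 replicate 4, and its highest pair from Scramble replicates 2 and 3. Scarna2, a guide for spliceosomal U2 RNA, had 8.09, 7.68, 8.17 and 8.17 in Pre-miR-223, 8.41, 8.76, 8.04 and 6.51 in Anti-miR-223, and 7.92, 7.39, 8.36 and 7.89 in Scramble. Snord89, the remaining member outside a host gene, differed by -1.92 in Anti-miR-223 replicate 4, and is named after its values were seen.

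**Figure D2:**
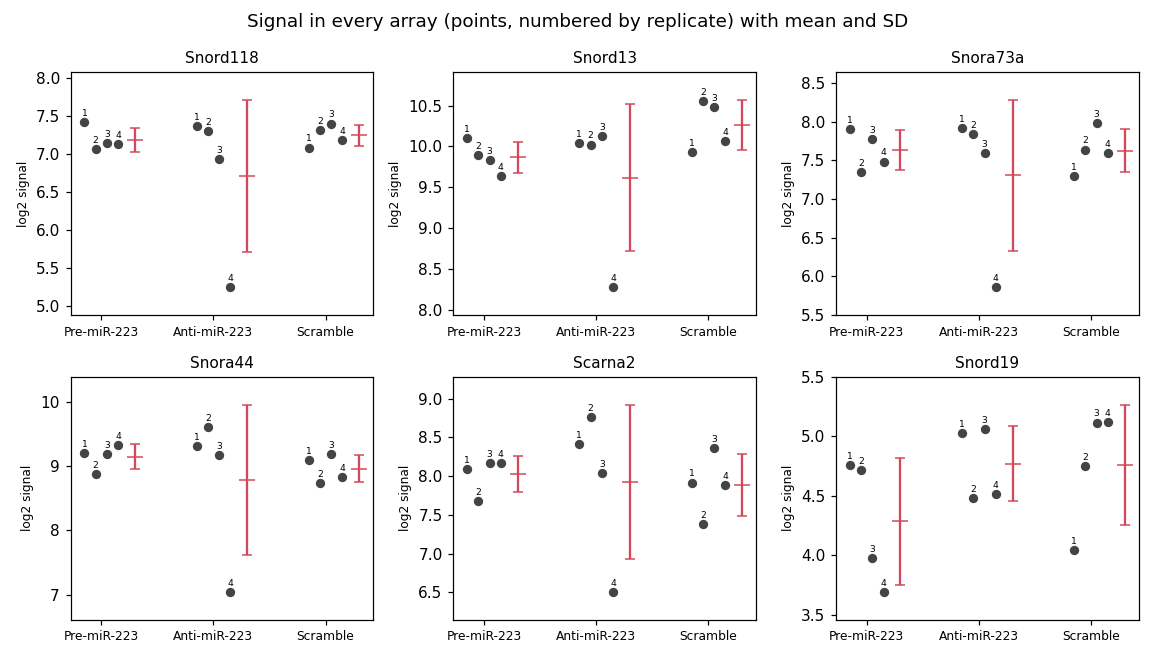
Log2 signal (vertical axis) of 6 members in every array, with Pre-miR-223, Anti-miR-223 and Scramble from left to right. Points are arrays numbered by replicate and the bar beside each group is its mean with the SD of 4 arrays; Anti-miR-223 replicate 4 lies far below the rest for Snord118 (5.25), Snord13 (8.28), Snora73a (5.86), Snora44 (7.04) and Scarna2 (6.51), and within the range of the others for Snord19 (4.51).

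The U17 pair behaved alike. Snora73a and Snora73b are the 2 copies of U17, which acts in early cleavage of the small-subunit ribosomal RNA precursor rather than in pseudouridylation, and both lie inside Snhg3. Snora73a had 7.91, 7.35, 7.78 and 7.48 in Pre-miR-223, 7.92, 7.84, 7.60 and 5.86 in Anti-miR-223, and 7.29, 7.64, 7.98 and 7.59 in Scramble. Snora73b had 8.32, 7.72, 8.21 and 7.90 in Pre-miR-223, 8.38, 8.45, 8.07 and 6.18 in Anti-miR-223, and 7.54, 7.96, 8.30 and 8.06 in Scramble. The copies are near-identical, so their probes may share signal. In both rows 1 array, Anti-miR-223 replicate 4, lay below all others, at -1.82 and -1.90 from the mean of the 11, and the other arrays of the 3 groups overlapped.

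The 5 lowest members in Anti-miR-223 replicate 4 were Snord49a (-2.43, 5.40 times lower), Snora44 (-2.10), Snord15a (-2.08), Snord83b (-1.98) and Snord118 (-1.97). Snord49a, which lies inside the non-coding host 2410006H16Rik, had 9.66, 8.91, 9.62 and 9.44 in Pre-miR-223, 9.60, 9.66, 9.28 and 6.96 in Anti-miR-223, and 9.25, 8.90, 9.57 and 9.39 in Scramble. Snora44, inside Snhg12, had 9.20, 8.87, 9.19 and 9.34 in Pre-miR-223, 9.32, 9.61, 9.17 and 7.04 in Anti-miR-223, and 9.10, 8.74, 9.18 and 8.83 in Scramble. The other 11 arrays lay between 8.90 and 9.66 for Snord49a and between 8.74 and 9.61 for Snora44, with the 3 groups overlapping. Snord15a, inside the ribosomal protein gene Rps3, had 8.69, 8.42, 8.73 and 8.91 in Pre-miR-223, 8.80, 8.60, 8.47 and 6.54 in Anti-miR-223, and 8.51, 8.22, 8.83 and 8.63 in Scramble.

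The steadiest members across the other 11 arrays included the brightest rows of each class. Snord22, from Snhg1, ranged only from 10.91 to 11.17 over those 11 arrays (SD 0.08) and was at 9.61 in Anti-miR-223 replicate 4. Snora34 had an SD of 0.13 and differed by -1.36 in that array, and Snora75, from the nucleolin gene Ncl, had an SD of 0.12 and differed by -1.80. Snord47 (Gas5), Snord82 (Ncl), Snord16a (Rpl4), Snord110 (Nop56), Snora21 (Rpl23) and Snora16a (Snhg12) differed by -1.24, -1.24, -1.52, -1.27, -1.47 and -1.93 in that order. Snord35a, one of the Rpl13a intron RNAs that were reported in rodent cells to take part in the response to excess lipid, differed by -1.54. Among Cajal body rows, Scarna6 differed by -1.79, Scarna10 (U85, a guide for spliceosomal U5 RNA) by -1.16, and the 2 Scarna17 rows by -1.92 and -1.58.

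The members that were not low in Anti-miR-223 replicate 4 were dim rows. The 3 highest there were Snord90 (-0.00), Snord19 (-0.10) and Snord123 (-0.15), with mean signals of 2.89, 4.61 and 2.26 over the other arrays. Snord19, inside Gnl3, had 4.76, 4.71, 3.98 and 3.70 in Pre-miR-223, 5.03, 4.48, 5.06 and 4.51 in Anti-miR-223, and 4.05, 4.75, 5.12 and 5.12 in Scramble, a spread (SD 0.50 over the 11 arrays) as wide as the gaps between its group means. Of the 12 members with a mean of the other arrays under log2 5.5, 1 was lower by over 1 and the median was -0.46. Of the 67 members at or above that level, 62 were lower by over 1 and the median was -1.60. The level of 5.5 was chosen after the values were seen.

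**Figure D3:**
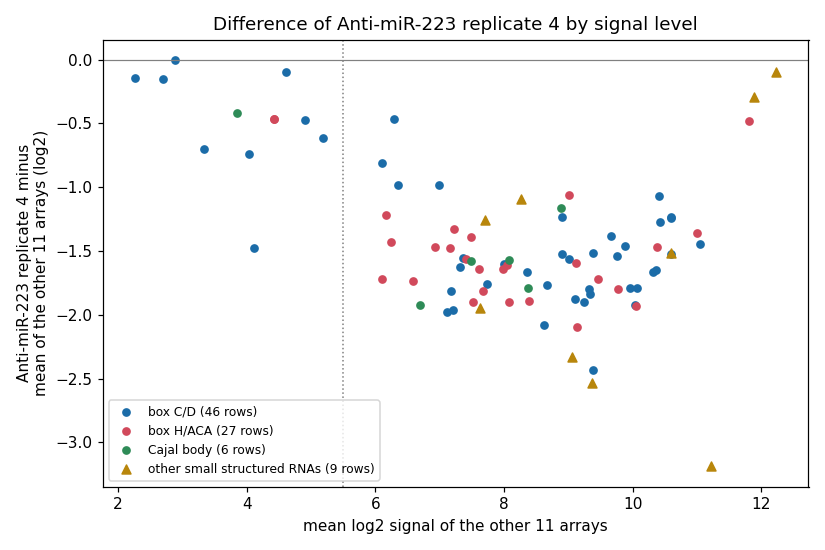
Difference of Anti-miR-223 replicate 4 from the mean of the other 11 arrays (vertical axis, log2) against that mean (horizontal axis, log2 signal) for the 79 tested members and 9 rows of other small structured RNAs (triangles). The dotted line is at log2 5.5; to its left the median member difference is -0.46 and to its right it is -1.60.

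Over the 67 brighter members the difference did not track the signal level (Pearson's r = -0.01, Spearman's rho = 0.01 across members) or the RefSeq gene length (r = -0.04, rho = -0.05). Over all 79 members the correlation with level was r = -0.60 (rho = -0.36). These are correlations across members of the same arrays, which share each library, and members are not independent replicates.

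Snora33, in Rps12, has 2 rows of different brightness. Row 17239753 had 11.81, 11.76, 11.88 and 11.46 in Pre-miR-223, 11.83, 11.93, 11.81 and 11.32 in Anti-miR-223, and 11.93, 11.83, 11.83 and 11.77 in Scramble, so that Anti-miR-223 replicate 4 differed by -0.48 from the mean of the others. Row 17239751 had 6.58, 6.19, 5.92 and 5.91 in Pre-miR-223, 6.36, 6.25, 6.14 and 4.95 in Anti-miR-223, and 5.28, 6.36, 6.67 and 6.17 in Scramble, a difference of -1.22. The brighter row lies near the highest value of the table, 12.4, and whether differences are compressed there was not tested. Row 17239753, Snord43 in Rpl3 (-0.47), Snord71 (-0.81), Snord17 (-0.98) and Snord23 (-0.99) are the 5 brighter members that were lower by less than 1. Snord71 and Snord23 were identified after their values were seen.

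Other small structured RNAs were low in the same array. Across 9 rows of spliceosomal, Y, 7SK, telomerase, RNase P and U3 RNAs the median difference was -1.52. The RNase P RNA Rpph1 differed by -3.19, the Y RNAs Rny3 and Rny1, which bind the Ro protein, by -2.54 and -1.52, and Rnu3a (U3, a box C/D RNA by structure that the rule did not take) by -2.33. The minor spliceosome RNAs Rnu12 and Rnu11 differed by -1.95 and -1.09, and Terc, the telomerase RNA, which carries an H/ACA domain, by -1.26. The 2 rows of 7SK RNA (Rn7sk), which holds back a transcription elongation factor, differed by -0.29 and -0.10, with mean signals also near the top of the scale. The 180 microRNA rows had a median of -0.15, 807 long non-coding rows -0.08 and 14034 protein-coding rows 0.09. Macrophage markers were 0.47 higher in this array by the median of 10 rows, and the fibroblast, epithelial, lymphoid, and neutrophil and dendritic lists had medians of -0.11, -0.35, -0.12 and -0.11. RNA integrity, RNA amount and a date or slide of each array were not analysed here, and their part in these values was not tested. In RNA from a whole culture, fewer cells holding an RNA and less of it in each cell cannot be told apart.

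Rows of host genes were lower by less than the members. In RefSeq's annotation 77 of the 81 rows lie within the span of a protein-coding or long non-coding gene, without regard to strand, and 66 such genes were found. The 68 tested rows of these genes had a median difference of -0.17 in Anti-miR-223 replicate 4, and 28 of them (41.2%) had their lowest value of the 12 arrays there, against 15.1% of all tested rows. Rows that repeat a value, described below, were each counted. A narrower set holds the 41 tested members with 1 host gene that has 1 tested row, the Snora19 rows taken once. Within it the member was lower than its host in 40 cases, with a median of -1.52 for the members, 0.06 for the hosts and -1.38 for member minus host. The exception was Snord19, 0.05 above Gnl3. The 30 host rows of this set ranged from -0.54 to 1.29 and 19 were above 0. By its construction the set leaves out genes with several rows, described below. Some of these host rows were dim, with means over the 12 arrays of 2.55 (Rpl39), 2.81 (Rpl17), 3.30 (Rpl37) and 4.54 (Zbed3). Others were bright, such as Eef1b2 (10.28) and Ncl (9.55). Whether dim host rows could show a lower value was not tested.

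**Figure D4:**
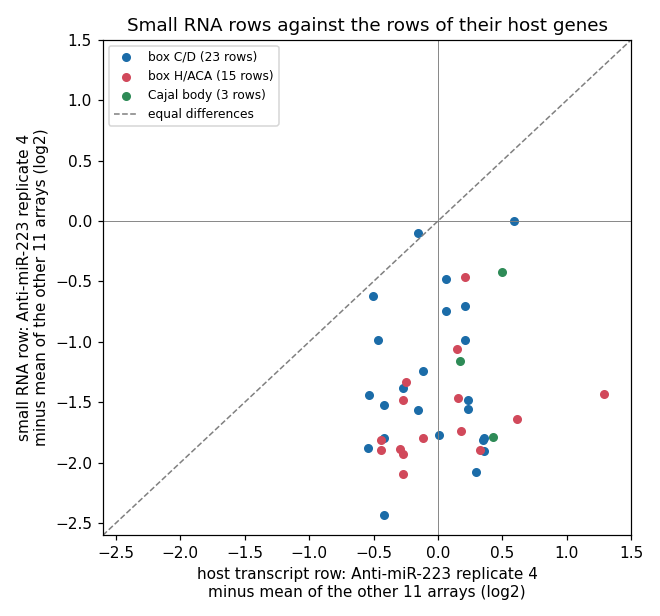
Each of 41 tested members with 1 host gene and 1 host row (vertical axis) against the row of its host gene (horizontal axis), both as Anti-miR-223 replicate 4 minus the mean of the other 11 arrays on the log2 scale. Points are coloured by class and the dashed line marks equal differences; 40 of 41 points lie below it.

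In this narrower set 8 hosts hold more than 1 guide, and 18 of their 19 guides were lower than the host row. Snhg12, a spliced non-coding RNA with a dim row (mean 4.79 over the 12 arrays), differed by -0.27 in this array. The 4 guides within it, Snora44, Snora16a, Snora61 and Snord99, differed by -2.10, -1.93, -1.48 and -1.38. The non-coding host 2410006H16Rik differed by -0.42, against -2.43, -1.79 and -1.52 for Snord49a, Snord49b and Snord65. Snhg3 differed by -0.44 and Snhg1 by -0.53. Ncl differed by -0.11, Rps3 by 0.30 and Nop58 by 0.35, all with guides lower by over 1. Gnl3 differed by -0.15, against -1.56 for Snord69 and -0.10 for Snord19. Outside the set, Snord43 (-0.47) lay near one of the 3 rows of its host Rpl3 (-0.40). Snora61, Snord99, Snord49b and Snord65 are named here because of their hosts.

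Host transcripts of small nucleolar RNAs often start within a run of pyrimidines, and the start regions of the hosts of the 2 lowest members are shown for that reason, beside that of Ncl, which hosts Snora75 and Snord82. Each is 40 bases before to 20 after the RefSeq gene start on GRCm38.p6, read on the gene's strand, with the longest run of C and T in capitals: chr4:132308638-132308697 (plus) for Snhg12, chr11:62602837-62602896 (plus) for 2410006H16Rik and chr1:86359436-86359495 (minus) for Ncl.
Snhg12: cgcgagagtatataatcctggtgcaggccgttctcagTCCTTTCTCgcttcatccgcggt
2410006H16Rik: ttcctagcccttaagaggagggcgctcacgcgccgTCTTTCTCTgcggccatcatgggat
Ncl: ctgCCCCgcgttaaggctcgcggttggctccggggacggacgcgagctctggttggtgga
The run is 9 bases long in Snhg12 and 2410006H16Rik and 4 in Ncl, where the capitals mark the first of several runs of equal length. Runs of at least 8 were found in 29.6% of 54 host windows and in 24.2% of all 32851 windows, with a median longest run of 6 in each, on the transcribed strand only. The match describes the letters and nothing more.

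Some rows that carry a host gene's symbol were low together with the members. Of 68 host rows, 8 (11.8%) were lower by over 1 in Anti-miR-223 replicate 4, against 2.04% of all tested rows, and all 8 belong to the 6 genes Rpl23a, Tpt1, Chd8, Nop56, Cct6a and Rpl4, each of which has more than 1 row. The 3 rows of Nop56, which encodes a core box C/D protein and hosts Snord110, differed by 1.28, -2.06 and -1.28. Of the 71 rows of listed host transcripts, which overlap with these, 15 (21.1%) were lower by over 1, with a median of -0.34, and 36 (50.7%) had their lowest value of the 12 arrays there. Some host rows repeat. The 2 rows of Rpl23a shared 1 mean and 1 difference (-1.02), as did most of the 8 rows of Rps12 (-0.34). Each was counted as a row, so the host shares and medians do not rest on separate measurements throughout. The median of -0.34 over the 71 listed rows is the value of those Rps12 rows. The 6 genes were singled out after their values were seen, and what the second rows detect is not given in the sources used here.

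Rows for proteins of the particles differed in both directions in Anti-miR-223 replicate 4. Of 8 core protein genes, 7 had a tested row, and fibrillarin (Fbl) had none. Their 10 rows had a median difference of 0.03 in Anti-miR-223 replicate 4, with Dkc1 at 0.58, Nop58 at 0.35, Nhp2 at 0.01, Nop10 at 0.05, Gar1 at -0.35 and the 2 Snu13 rows at 0.14 and -0.34. The 2 low Nop56 rows above are the 2 of 10 (20%) that were lower by over 1, against 2.04% of all tested rows. Of the 10 rows, 4 had their lowest value of the 12 arrays there and 3 their highest, against 2332 and 5090 of 15458 tested rows.

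The members also moved together across the other 11 arrays. Each of the 67 brighter members was set against the median of the other brighter members, rows of its own symbol left out, over those 11 arrays. The median Pearson's r was 0.77, with 59 of 67 above 0.5. The box C/D median was 0.77, the box H/ACA median 0.77 and the Cajal body median 0.83. The other small structured RNAs had a median r of 0.73 with the same profile, protein-coding rows -0.19, host rows -0.25 and core protein rows -0.48. These values are descriptions over 11 arrays from shared libraries. The 12 dimmer members had a median r of 0.31 with the profile of the brighter members, which holds none of the dimmer members.

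No member passed the test in any comparison between groups. The test was limma's moderated test on group means, two-sided, fitted to 15458 rows with Benjamini-Hochberg adjustment over all of them and a threshold of 0.05. With all 12 arrays 0 of 79 members were called in each of the 3 comparisons, as were 0% of all rows, and without Anti-miR-223 replicate 4 again 0 of 79 members and 0% of all rows. Both comparisons with Scramble share its 4 arrays, and each shares an arm with the direct comparison of the other groups.

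In Pre-miR-223 against Scramble the small nucleolar RNAs were centred near no difference. The median differences were 0.01 for box C/D, 0.04 for box H/ACA and 0.12 for Cajal body rows, beside -0.05 for all rows. By class, 24 of 46, 16 of 27 and 4 of 6 were higher in Pre-miR-223, against 5618 of 15458 rows. The lowest adjusted p of a member by limma was 0.891. At an unadjusted p under 0.05 there were 0 members, against 5.03% of all rows, and without Anti-miR-223 replicate 4, which here changes only the estimate of spread, there was 1, against 9.79%. That member was Snord13, which averaged 9.87 ± 0.19 in Pre-miR-223 and 10.26 ± 0.31 in Scramble (SD, n = 4 each). Its difference of -0.39 had a 95% interval of -1.11 to 0.32 (limma adjusted p = 0.909) and of -0.69 to -0.09 without Anti-miR-223 replicate 4 (limma adjusted p = 0.479). In 3 of 4 Pre-miR-223 arrays Snord13 lay below every Scramble array, and the groups overlapped through Pre-miR-223 replicate 1.

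The other members with the smallest p in this comparison were small in size or wide in spread. Snord43 had 6.52, 6.41, 6.29 and 6.55 in Pre-miR-223 and 5.95, 6.00, 6.57 and 6.16 in Scramble, a difference of 0.27 (interval -0.06 to 0.60, limma adjusted p = 0.891). The other 3 Scramble arrays lay below all Pre-miR-223 arrays, and Scramble replicate 3 lay above all of them. Snord19 differed by -0.47, Snord37 by -0.30 and Snord52 by -0.26, each with an interval across 0. Among box H/ACA rows Snora33 (row 17239753) differed by -0.11, Snora15 by 0.16 and Snora23 by -0.10, and the Cajal body RNA Scarna8 by -0.07. With cyclic loess normalization Snora33 and Snora23 changed sign, to 0.01 and 0.02.

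In 74 of 79 members the 95% interval of Pre-miR-223 minus Scramble left out a 2-fold difference in both directions, against 15070 of 15458 rows, and without Anti-miR-223 replicate 4 in 78 of 79, against 15249. A 1.5-fold difference was left out for 13 of 79 members with all arrays, against 12556 rows, and for 71 of 79 without that array, against 13815. From the estimate to either end the members' interval measured 0.68 by the median with all 12 arrays and 0.29 without that array, beside 0.29 and 0.25 over all rows. No member had groups that did not overlap, against 0.828% of all rows with Pre-miR-223 higher and 2.15% with it lower.

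In Anti-miR-223 against Scramble the direction rested on 1 array. With all 12 arrays the medians were -0.21, -0.21 and -0.09 for box C/D, box H/ACA and Cajal body rows, beside -0.01 for all rows, and 44 of 46, 26 of 27 and 5 of 6 were lower in Anti-miR-223, against 8146 of 15458 rows. Without Anti-miR-223 replicate 4 the medians were 0.13, 0.17 and 0.19, beside -0.05 for all rows. Then 36 of 46, 23 of 27 and 5 of 6 were higher in Anti-miR-223, against 5844 of 15458 rows. With weights fitted to each array the medians were 0.02, 0.03 and 0.11. The lowest adjusted p of a member by limma was 0.99997 with all arrays and 0.730 without that array.

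**Figure D5:**
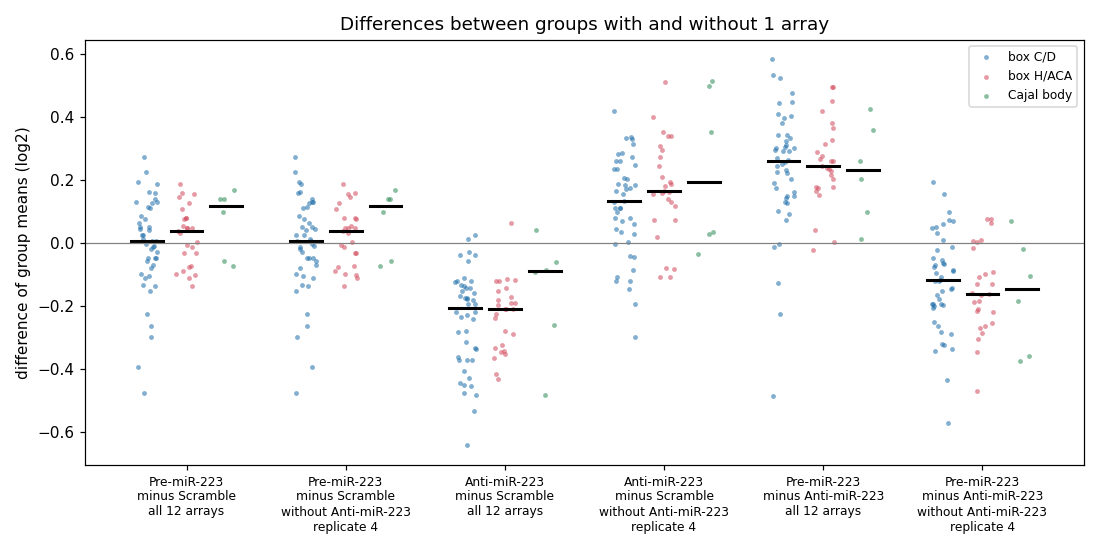
Difference of group means (vertical axis, log2) for each tested member in the 3 comparisons, each with all 12 arrays and without Anti-miR-223 replicate 4 (horizontal axis). Points are rows coloured by class and black bars are class medians; the Anti-miR-223 minus Scramble medians are -0.21, -0.21 and -0.09 with all arrays and 0.13, 0.17 and 0.19 without that array.

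With all arrays 0 members had an unadjusted p under 0.05 in this comparison, against 1.90% of all rows. The members with the smallest p averaged lower in Anti-miR-223 and had a wide spread there. Snord17 averaged 6.67 ± 0.46 in Anti-miR-223 and 7.04 ± 0.21 in Scramble, Snord13 averaged 9.62 ± 0.90 and 10.26 ± 0.31 in the same order of groups, and Snord69 averaged 8.55 ± 0.75 in Anti-miR-223 and 9.02 ± 0.21 in Scramble (SD, n = 4 each). Without replicate 4 the SDs in Anti-miR-223 were 0.12, 0.05 and 0.17 (n = 3) and the differences -0.15, -0.19 and -0.11. Snord118 differed by -0.53 and Snord88a by -0.45, and by -0.04 and -0.30 without it. Snora23, Snora74a (U19) and Snora16a differed by -0.34, -0.43 and -0.42, and by -0.08, -0.08 and 0.07 without it, and Scarna6 by -0.48, and by -0.04 without it.

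Without Anti-miR-223 replicate 4, 8 members had an unadjusted p under 0.05 (10.1% of 79), all higher in Anti-miR-223, against 6.35% of all rows (278 of 15458 higher and 703 lower). They are the 2 Scarna17 rows (0.50 and 0.35), Scarna2 (0.51), Snora30 (0.51), Snora44 (0.40), Snora31 (0.34), Snord70 (0.33) and Snord35a (0.31), and each had a limma adjusted p of 0.730. Snora30, Snora31 and Snord70 were identified after their values were seen. Snora30, in Srcap, had 6.68, 6.66 and 6.44 in the 3 remaining Anti-miR-223 arrays and 5.70, 6.09, 6.55 and 6.01 in Scramble. Scramble replicate 3 lay above one of those Anti-miR-223 arrays, so the groups overlapped. Over the members, 0 had groups that did not overlap, against 0.524% of all rows higher and 1.01% lower in Anti-miR-223 with all arrays, and 2.08% higher and 4.38% lower without that array. The interval left out a 2-fold difference for 52 of 79 members with all arrays, against 15214 of 15458 rows, and for 79 of 79 without that array, against 15300. A 1.5-fold difference was left out for 9 of 79 members, against 13398 rows, and for 53 of 79 without that array, against 13542.

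The direction of Pre-miR-223 against Anti-miR-223 also rested on that array. With all arrays the medians were 0.26, 0.24 and 0.23 for box C/D, box H/ACA and Cajal body rows, beside -0.04 for all rows, and when Anti-miR-223 replicate 4 was left out -0.12, -0.16 and -0.14, beside -0.01. With weights fitted to each of the 12 arrays the medians were -0.0031, -0.027 and -0.071. The lowest adjusted p of a member by limma was 0.933 with all arrays and 0.957 without that array. Unadjusted, 0 members were under 0.05 with all arrays, against 3.97% of all rows. Without that array there were 4, all lower in Pre-miR-223, against 4.84% of all rows, 332 higher and 416 lower (Snord35b at -0.28, Snord70 at -0.32, Snora30 at -0.47 and Snora7a at -0.35). Groups did not overlap for 0 members with all arrays, against 0.731% of rows with Pre-miR-223 higher and 0.977% with it lower. Without that array Pre-miR-223 lay wholly below Anti-miR-223 for Snord52, Snord111, Snora30, Snora41 and Snora78, 5 of 79 members, against 2.53% of all rows, and wholly above it for 0, against 2.27%. Apart from Snord52, the members in the last 3 sentences were identified after their values were seen. The members named by smallest p were Snord43 (0.30), Snord69 (0.52), Snord19 (-0.49), Snord17 (0.32), Snord16a (0.45), Snora74a (0.42), Snora16a (0.49), Snora15 (0.45) and Scarna10 (0.36), and without that array 0.19, 0.16, -0.57, 0.10, 0.07, 0.06, 0.00, 0.01 and 0.07.

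The protein and host genes of the pathway gave no call either. In Pre-miR-223 against Scramble 9 of 10 core protein rows were lower in Pre-miR-223, with a median of -0.14, against 9840 of 15458 rows lower. An unadjusted p under 0.05 was reached by 2 of 10 (20%), all lower, against 5.03% of all rows (218 higher and 560 lower). Without Anti-miR-223 replicate 4 it was reached by 3 of 10 (30%), all lower, against 9.79% (417 higher and 1097 lower). Nop10, a core box H/ACA protein, differed by -0.61 and Snu13, a core box C/D protein, by -0.28 (row 17516993), with the same differences without that array, neither called after adjustment by limma. Of 71 rows of listed host transcripts, the repeated Rps12 rows each counted, 0 were called in any comparison. In Pre-miR-223 against Scramble 5 (7.04%) had an unadjusted p under 0.05, against 5.03% of all rows, and without Anti-miR-223 replicate 4 there were 16 (22.5%), 6 higher and 10 lower, against 9.79%. In Anti-miR-223 against Scramble there were 2 (2.82%), against 1.90%, and 3 (4.23%) without that array, against 6.35%. Between the miR-223 agents there were 2 (2.82%), against 3.97%, and 3 (4.23%) without it, against 4.84%. The host rows with the smallest p in Pre-miR-223 against Scramble were Rpl27a (0.27) and Rpsa (-0.31). In Anti-miR-223 against Scramble they were Rps12 (-0.37, and -0.23 without that array) and Rpsa (-0.27 and -0.24). Between the miR-223 agents, Pre-miR-223 minus Anti-miR-223, they were Rpl27a (0.27 and 0.26) and Rpl3 (-0.39 and -0.50).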

How the data were processed

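The deposited table holds log2 intensity values after RMA in Affymetrix Expression Console, with Partek also named, per the submitters' processing notes; labelling used the GeneChip WT PLUS kit, per the labels' protocols. The table names no log base, and base 2 was taken because RMA writes it and because values run from 0.53 to 12.4. The genome build of the table is not given in the sources used here. Arrays were grouped by their titles. Rows were named through the platform annotation and RefSeq (GRCm38.p6).

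Rows with exactly 1 symbol and a mean over 12 arrays above the 40th percentile of all rows (log2 2.01) were fitted with limma 3.58.1 in R 4.3.3, with group means of the 3 groups, 9 residual degrees of freedom and Benjamini-Hochberg adjustment over 15458 rows. Tables used Python 3.11.15 with pandas 2.3.3. The fit was tested on simulated data drawn with independent normal noise in each row. Those data held no outlying array, so the test cannot speak to the effect of Anti-miR-223 replicate 4. The number of arrays limits the precision. Members, lists and comparisons were chosen with earlier results of these data known.

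Members named were those with the smallest p in each comparison (5 box C/D, 3 box H/ACA and 1 Cajal body row), the 5 brightest box C/D and 5 brightest box H/ACA rows, the 5 lowest and 3 highest in Anti-miR-223 replicate 4, a list of well-known members, and core protein and host genes by smallest p or because they host a named member. Arrays of equal replicate number were not taken as paired: over 12 pairs of equal number the correlation of deviations ran from -0.56 to 0.48, with 4 above 0.1. Such a spread shows no steady pairing and cannot exclude it. Alternatives were the normalization, the level required, limma's options, array weights, a replicate block and arrays left out.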

Additional observations from a re-analysis of the deposited data

Results flagged for a closer look

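Within a group of 4 arrays, a value was singled out when 1 array's gap to its nearest neighbour made up over 0.829 of the group's whole range, which chance gives in about 1 of 20 groups. In Anti-miR-223 the array in question was replicate 4 and lay low in each case. The gap made up 0.897, 0.891 and 0.859 of the range for the medians of box C/D, box H/ACA and Cajal body rows. For single box C/D members it was 0.944 (Snord13), 0.981 (Snord22), 0.899 (Snord47), 0.848 (Snord110), 0.860 (Snord49a), 0.855 (Snord15a) and 0.933 (Snord83b). For box H/ACA members it was 0.919 (Snora15), 0.936 (Snora23), 0.986 (Snora16a), 0.952 (Snora34), 0.962 (Snora75), 0.829 (Snora44), 0.843 (Snora73a) and 0.830 (Snora73b), and for Cajal body members 0.955 (Scarna10) and 0.839 (Scarna17, row 17355435). Snord49a, Snora44, Snord15a and Snord83b were named because they were among the lowest members in that array. The chance rate therefore does not apply to them. Nor is it read for the other Anti-miR-223 rows and medians, which share 1 array that stood apart over the whole table. In Pre-miR-223 the share was 0.915 for Snord52 and 0.835 for Snord88a, in both because replicate 4 lay low, and 0.847 for Scarna2, because replicate 2 lay low. Over all 79 tested members 5 were singled out in Pre-miR-223, 39 in Anti-miR-223 and 1 in Scramble. The share over all tested rows was not computed. Anti-miR-223 replicate 4 stood apart over the whole table too, so the 39 are not read as particular to the members.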

How the results depend on the processing

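Over 40 other settings, 24 planned and 16 chosen after seeing the data, 0 members were called in any comparison, and the lowest adjusted p of a member was 0.184. The replicate block gave 0 calls in all 3 comparisons, with lowest limma adjusted p of 0.968 for Pre-miR-223 minus Scramble. All rows called in that comparison ran from 0 to 227 with arrays left out, 227 (0 of them members) without Anti-miR-223 replicate 4 and Pre-miR-223 replicate 2 together. The box H/ACA median of Anti-miR-223 replicate 4 was -1.77 with quantile normalization repeated and -1.78 with cyclic loess. Class medians of Anti-miR-223 minus Scramble ran from -0.37 to 0.22 (box C/D), -0.40 to 0.28 (box H/ACA) and -0.31 to 0.28 (Cajal body) with arrays left out, those of Pre-miR-223 minus Anti-miR-223 from -0.17 to 0.40, -0.25 to 0.43 and -0.21 to 0.46, and those of Pre-miR-223 minus Scramble from -0.06 to 0.12, -0.07 to 0.14 and 0.02 to 0.23. Each fit that kept Anti-miR-223 replicate 4 and left out another array had the first set below 0 and the second above 0, and each fit without it had the reverse.

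Pre-miR-223 minus Scramble changed sign with cyclic loess for Snora33 (0.0073, and 0.0067 without Anti-miR-223 replicate 4) and Snora23 (0.019 and 0.018). The other changes of sign all came without that array. For Anti-miR-223 minus Scramble, cyclic loess then gave 0.048 (Snord118), 0.017 (Snora74a), 0.12 (Snora16a) and 0.039 (Scarna6), repeated quantile normalization 0.022 (Snord118), 0.12 (Snora16a) and 0.0058 (Scarna6), and array weights 0.0099 (Snora16a) and 0.0082 (Scarna6). Snora16a was at 0.07 with no further change, 0.045 with centring and 0.11 with the replicate block. With a second array left out the values ran up to 0.092 (Snord118, Anti-miR-223 replicate 3), 0.0045 (Snora74a, the same array), 0.19 (Snora16a, Scramble replicate 3) and 0.077 (Scarna6, Scramble replicate 3). For Pre-miR-223 minus Anti-miR-223, the replicate block without that array gave -0.028 (Snora16a) and -0.027 (Snora15). With a second array left out the values ran down to -0.026 (Snord16a), -0.018 (Snora74a), -0.024 (Snora16a, Pre-miR-223 replicate 4) and -0.043 (Snora15), the others being without Anti-miR-223 replicate 3. The lowest and highest values with arrays left out were -0.16 and 0.0067 (Snora33) and -0.18 and 0.018 (Snora23) for the first comparison, -0.75 and 0.092 (Snord118), -0.60 and 0.017 (Snora74a), -0.58 and 0.19 (Snora16a) and -0.68 and 0.077 (Scarna6) for the second, and -0.026 and 0.61 (Snord16a), -0.018 and 0.59 (Snora74a), -0.028 and 0.66 (Snora16a) and -0.043 and 0.61 (Snora15) for the third. The cause of these changes was not tested. Signal near the floor of the arrays limits what the 12 dimmer members can show.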

Other observations

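Rows that list a small nucleolar or Cajal body RNA symbol beside another symbol, 46 in all and 16 of them Snord116 rows, were outside the comparisons. The 30 of them above the level required had a median difference of -1.26 between Anti-miR-223 replicate 4 and the mean of the other 11 arrays, on the log2 scale. The rows of proteins that assemble the particles or mark Cajal bodies (23 rows) and of nucleolar proteins of ribosomal RNA transcription and processing (20 rows) held 0 calls by limma in any comparison. At an unadjusted p under 0.05 they held 0 and 1 rows in Pre-miR-223 against Scramble (5.03% of all rows), 1 and 0 in Anti-miR-223 against Scramble (1.90%) and 0 and 1 between the miR-223 agents (3.97%). Without Anti-miR-223 replicate 4 these counts were 2 and 2 (9.79% of all rows), 1 and 1 (6.35%) and 0 and 2 (4.84%).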
